A study of Danio rerio with 8 samples.

Results

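Transcript levels of splicing factors and related RNA-binding proteins were examined in zebrafish larval hearts through 7 gene families, chosen by the start of the gene symbol. Levels of genes were measured, not the splicing of their targets. Genes whose symbol began with snrp, sf3, srsf, hnrnp, u2af, prpf or lsm were taken, 92 in all in the RefSeq gene table used for naming. Of these, 73 had a probe on the array matched through a RefSeq accession, and 72 were measured among 21526 units tested, of which 8906 were named genes. Hearts came from larvae at 4 days post-fertilization that had been kept from 72 to 96 hours post-fertilization either in 1 uM sorafenib, an anticancer inhibitor of RAF and of vascular growth factor receptor kinases, or in the vehicle alone. Each group had 4 arrays, described by the submitters as independent experiments. Both groups were raised in egg water, and the labels name neither a strain nor how many hearts made up a sample. The arrays were Agilent one-colour arrays with Cy3-labelled copies of total heart RNA.

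The spliceosome removes introns through small nuclear ribonucleoproteins, complexes of a small nuclear RNA with proteins. The snrp genes encode the Sm proteins that form a ring on these RNAs and proteins specific to U1 or U2. The sf3 and u2af genes encode factors that recognise the branch point and the end of the intron, the prpf genes mainly encode proteins of the U4/U6.U5 complex and its partners, and the lsm genes encode Sm-like proteins of splicing and of mRNA decay. The srsf genes encode serine and arginine rich proteins, which mostly promote the use of an exon, whereas many hnRNP proteins act as their antagonists and also bind mRNA during export, storage and decay. Splicing regulators of these kinds are known to set the isoforms of sarcomere proteins in heart muscle.

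Each level is given on the log2 scale relative to the array's own 75th percentile of signal, so that 0 stands for a signal at that percentile. Fold changes are sorafenib minus control on the log2 scale, from limma fitted over all 21526 units, and p-values adjusted by Benjamini and Hochberg cover all of them. A gene with several probes is represented by its brightest one, and levels of different probes are not compared. Between 54.98% and 59.54% of the spots on an array were well above background, and the 75th percentile of the processed signal lay between 85.1 and 154.6. Arrays correlated at 0.946 to 0.985 within a group and 0.947 to 0.987 between groups over all units. The precision of each difference is limited by the number of arrays. All 72 measured members were well above background on 8 of 8 arrays, while lsm14b, which encodes an mRNP-associated Sm-like protein, was so on 0 arrays and was left out. No member lay just inside the limit of 4 arrays. The 19 genes without a matched probe, among them prpf8, hnrnpa1a, hnrnpm, srsf4, snrpb2 and lsm8, were not analysed here.

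The tissue label was checked against marker lists. Of 15 heart muscle markers with a probe, 14 were measured, and gata4 was not well above background on enough arrays. Markers of other tissues were present as well. Measured were 19 of 19 neural markers with a probe, 13 of 13 liver and plasma markers and 11 of 12 yolk and digestive tract markers. So were 8 of 8 skin and pharyngeal epithelium, 10 of 10 erythroid and 6 of 8 leukocyte markers. The skin and pharyngeal epithelium list had the largest summed linear signal on every array. It was 893.7 to 1236.3 in controls and 799.2 to 1302.5 with sorafenib, in units of the 75th percentile. The summed linear signal of the neural markers, in units of the 75th percentile, was 300.2 to 388 in controls and 146.5 to 327.3 with sorafenib. It was 170.1 and 146.5 in sorafenib replicates 2 and 3, the arrays that stood apart, and 327.3 and 324.3 in replicates 1 and 4. Of 12 measured endothelial and endocardial markers, 11 had a negative log2 fold change, with a median of -0.67, and cdh5 and nfatc1 were not measured. Their median deviation from the mean over arrays was 0.17 to 0.41 in controls and -0.51 to -0.26 with sorafenib, so the groups were separate, while their summed signals overlapped at 58.0 to 69.4 and 48.7 to 62.8. The 13 liver and plasma markers were all positive, with summed signals of 270.9 to 658.3 in controls and 297.8 to 794 with sorafenib, and 13 of 14 heart muscle markers were positive, at 218.2 to 346 and 239 to 495.3. Yolk and digestive tract markers were positive in 10 of 11 cases, with a median of 1.596 and overlapping arrays. Of 10 eye and lens markers with a probe 4 were measured, all positive with a median of 1.42, and their summed signal was separate between the groups but low, at 0.34 to 0.47 in controls and 0.64 to 2.51 with sorafenib. In a heart sample, fewer cells of a type and less RNA per cell cannot be told apart.

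No transcript passed an adjusted p of 0.05 in limma, neither among the members nor among all units, where 0 were higher and 0 lower (0% each way). At an unadjusted p under 0.05, 4 members were lower in sorafenib hearts, 5.56% of the 72, against 3.3% of all units, and 1 was higher, 1.39% against 4.16% of all units. The 4 sorafenib values lay wholly below the 4 control values for 6 members (8.33%, against 1.91% of all units) and wholly above them for 1 (1.39%, against 2.28%). The median log2 fold change over the 72 members was -0.10, with a range from -0.60 to 0.64. The median over all units was -0.02, and that over the named genes was 0.03. Of the members, 59 (81.9%) had a negative value and 13 a positive one, against 51.9% and 48.1% of all units. Most differences were small: 49 members, or 68.1%, had a log2 fold change under 0.2 in size, compared with 47.9% of all units. The share of negative members was 63.9% when arrays were scaled to their median, against 44.6% of all units. It was 61.1% without sorafenib replicate 4 and 86.1% without control replicate 4, against 48.2% and 54.1% of all units.

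**Figure D1:**
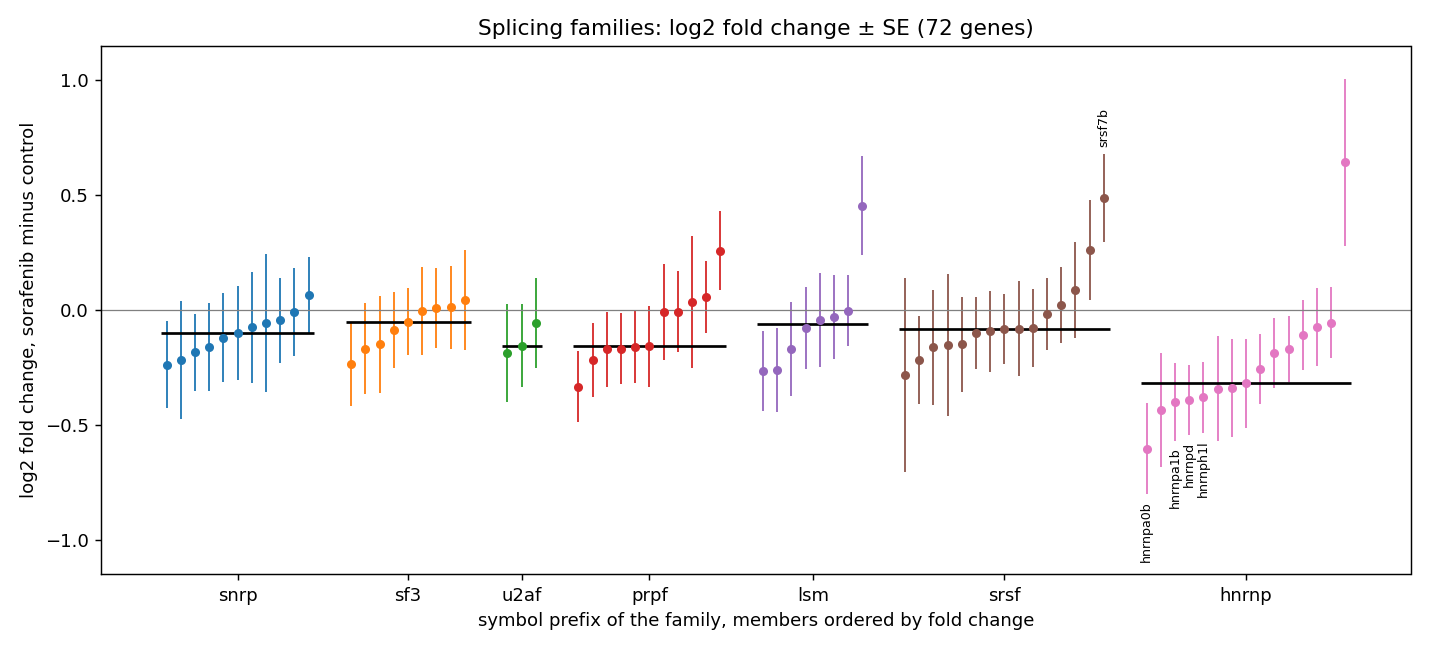
Log2 fold change (sorafenib minus control, y axis) with its standard error for the 72 measured genes, grouped by symbol prefix along the x axis. Horizontal lines are family medians, which lie between -0.05 for sf3 and -0.16 for prpf except for hnrnp at -0.32; the 5 named points have an unadjusted p under 0.05.

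The hnRNP genes held the 4 members lower at an unadjusted p under 0.05 (26.7% of the family, against 3.3% of all units). Of 15 measured, 14 had a negative log2 fold change, with a family median of -0.32, and hnrnpk was the exception. For 5 of the 15 (33.3%, against 1.91% of all units) the sorafenib values lay wholly below the control values. The median deviation of the family from each gene's mean over the 8 arrays was 0.15, 0.11, 0.13 and 0.17 in control replicates 1 to 4. It was -0.02, -0.16, -0.24 and -0.08 in sorafenib replicates 1 to 4. Every control array thus lay above every sorafenib array. The 2 sorafenib arrays with the lowest neural signal, replicates 2 and 3, were also the lowest in this family. Their summed heart muscle signal was the highest of all 8 arrays, at 454.2 and 495.3. The same held for their median deviation of liver and plasma markers, at 0.56 and 1.29. Without these 2 arrays the family median was -0.19 and 13 of 15 values were negative. The median over all 72 members was -0.19 as well in that setting, so the hnRNP median was no lower than that of all members. The other families ranged there from -0.27 for snrp to -0.14 for srsf. The endothelial markers and the eye and lens markers, the latter in the opposite direction, separated the same groups. So did the 34 spliceosomal helicases and step factors outside the families. Their median deviation was -0.01 to 0.18 in controls and -0.09 to -0.02 with sorafenib. The part of neural, endothelial, eye, digestive tract, liver or heart muscle content in the family's value was not tested. Among all settings tried, the family median stayed between -0.37 and -0.19.

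The transcript of hnrnpa0b, an hnRNP of the A/B type, read 4.78, 5.06, 5.05 and 4.92 in control replicates 1 to 4 and 3.94, 4.49, 4.27 and 4.70 with sorafenib. All sorafenib values were below all control values, and the lowest came from replicate 1, whose neural signal lay within the control range. Its log2 fold change was -0.60 ± 0.20 (SE), with an unadjusted p of 0.0132 and an adjusted p of 0.584 in limma. It was -0.71 on slide 1 and -0.50 on slide 2, each of which carried 2 arrays of each group, and -0.63 without sorafenib replicates 2 and 3. Its copy hnrnpa0a stood at -0.34 ± 0.23, and there the groups overlapped. The hnrnpa0a value was 0.01 on slide 1 and -0.69 on slide 2, so the mean rested on slide 2. It was -0.08 without sorafenib replicates 2 and 3.

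The transcript of hnrnpd, whose protein binds AU-rich elements and marks mRNAs for decay in mammals, had a control mean of 4.01 ± 0.13 (SD, n = 4 arrays) and a sorafenib mean of 3.62 ± 0.09. Control replicates 1 to 4 read 3.84, 4.00, 4.15 and 4.05. Sorafenib replicates 1 to 4 read 3.51, 3.73, 3.58 and 3.65. The groups did not overlap, and the sorafenib arrays lay close together. Its log2 fold change of -0.39 ± 0.15 (SE) had an unadjusted p of 0.0286 and an adjusted p of 0.649 in limma, and it was -0.43 without sorafenib replicates 2 and 3.

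The transcript of hnrnph1l, a member of the H group that binds runs of guanines, read 5.09, 4.93, 4.99 and 5.04 in controls and 4.64, 4.60, 4.44 and 4.85 with sorafenib. The groups were separate, with sorafenib replicate 4 nearest to the controls. The difference was -0.38 ± 0.16 on the log2 scale (SE; unadjusted p = 0.0370, adjusted p = 0.658 in limma), and -0.27 without sorafenib replicates 2 and 3. The transcript of hnrnpa1b, one of the zebrafish genes for hnRNP A1, a splicing repressor that competes with serine and arginine rich proteins, read 4.31, 4.37, 4.18 and 4.25 in controls and 3.91, 4.08, 3.54 and 3.98 with sorafenib. Here too each sorafenib array was below each control array, with replicate 3 the lowest. The log2 fold change was -0.40 ± 0.17 (SE; unadjusted p = 0.0426, adjusted p = 0.661 in limma).

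**Figure D2:**
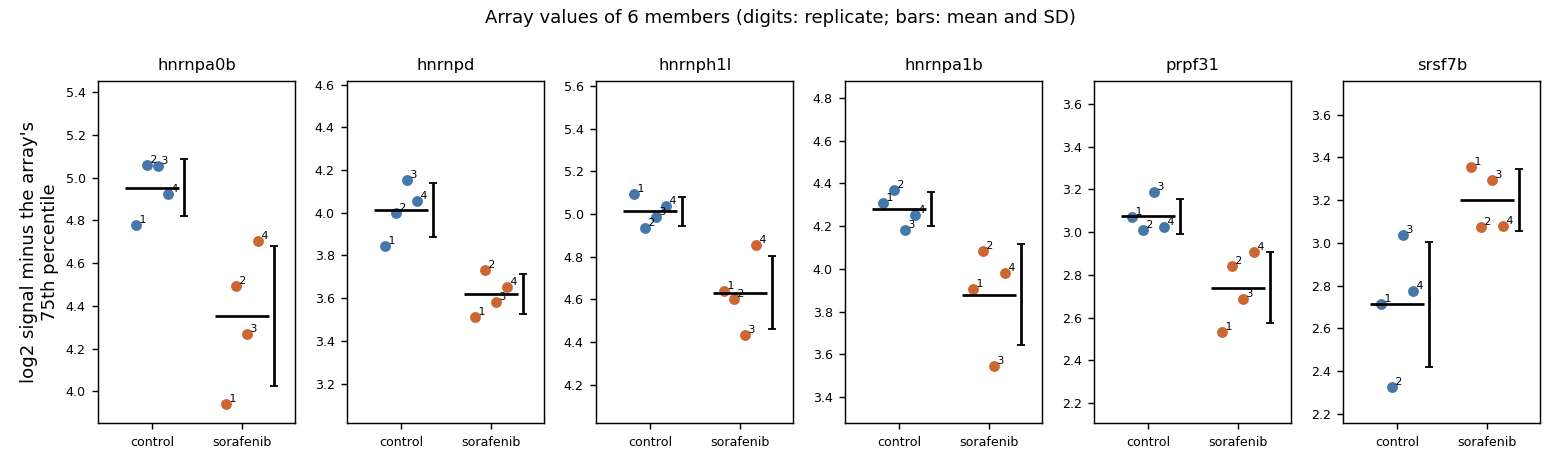
Log2 signal relative to the 75th percentile of the array (y axis, spanning the same width in each panel) for 6 genes on each of the 4 control and 4 sorafenib arrays. Points are arrays with their replicate number and bars give mean and SD; in each of the 6 panels the groups do not overlap, with sorafenib below control for 5 genes and above it for srsf7b.

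The unadjusted p was under 0.05 in 20 of 22 settings for hnrnpa0b, the main one included, in 13 for hnrnpd, in 9 for hnrnpa1b and in 7 for hnrnph1l, with a negative value in all 22 for each. Leaving out sorafenib replicate 3 alone took hnrnpd, hnrnph1l and hnrnpa1b out of that range, at an unadjusted p from limma's fit over all units of 0.0601, 0.0999 and 0.122. Leaving out control replicate 2, 3 or 4 or sorafenib replicate 1 alone did so too, at an unadjusted p in limma of 0.0554 to 0.0967.

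Further hnRNP members had values of the same sign without a p under 0.05. For hnrnpabb, controls read 4.86 to 5.07 and sorafenib hearts 4.74 to 4.85, which was separate but a small difference (-0.17 ± 0.14, SE). The A/B type gene hnrnpaba stood at -0.32, hnrnpl, which binds CA-rich RNA, at -0.43, and hnrnpr at -0.34, and for these 3 the groups overlapped. Without sorafenib replicates 2 and 3 they stood at -0.22, -0.31 and -0.06, so the hnrnpr value rested on those arrays. The H group gene hnrnph1 stood at -0.26 and hnrnpl2 at -0.19. The values of hnrnpc (-0.11), hnrnpub (-0.07) and hnrnpul1 (-0.05) were near 0. The KH-domain gene hnrnpk read -1.66, -2.23, -2.10 and -2.48 in controls and -0.87, -1.20, -1.23 and -2.59 with sorafenib. Of its sorafenib arrays, 3 were above all controls, and replicate 4 was below them all. Its log2 fold change was 0.64 ± 0.36 (SE; unadjusted p = 0.109), the highest among the 72 members but with the SD of the sorafenib arrays at 0.76.

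Other probes of the same hnRNP genes, which did not enter the fit of the members, gave a check on the brightest one. All 7 hnRNP members with more than 1 usable probe had only negative probes, and 9 of 9 of the less bright probes were negative. Less bright probes were mostly negative in all families together, in 28 of 32 cases, with 5 of 5 for prpf, 4 of 4 for lsm and 5 of 8 for srsf. The genes hnrnpa0b, hnrnpd and hnrnpa1b had 1 probe each, so the check did not cover them. Across all families 29 members had several probes. The probes shared a sign in 21 of these, and their range was under 0.2 in 18. Probes of a gene were measured on the same RNA and are not replicates. The range was above 0.5 for 3 genes. The probes of srsf6b gave -0.73 and 0.09, those of srsf5b -0.79 to -0.07 and those of srsf1a -0.08 and 0.44. In these 3 genes the brightest probe gave 0.09, -0.15 and -0.08, and the sign of srsf1a and srsf6b depends on the probe used.

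**Figure D3:**
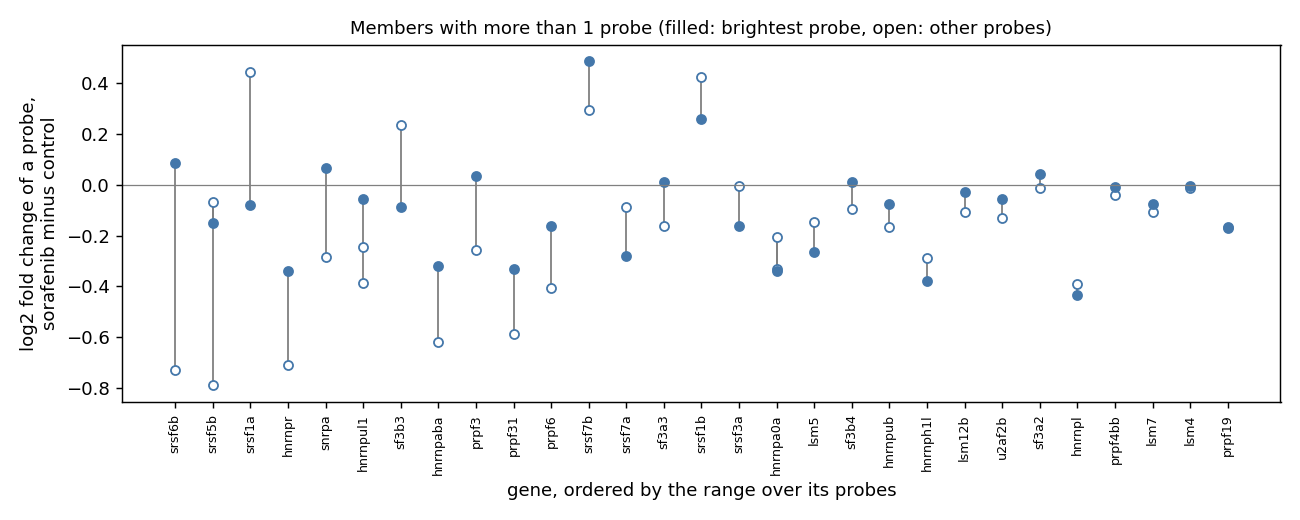
Log2 fold change (sorafenib minus control, y axis) of each probe of the 29 genes with more than 1 probe well above background on 4 or more arrays, ordered along the x axis by the range over probes. Filled points are the brightest probe and open points the others; srsf6b, srsf5b and srsf1a on the left span more than 0.5, and the 7 hnRNP genes lie wholly below 0.

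Among the 15 srsf members, 11 had a negative value, and the family median was -0.08. Without sorafenib replicate 4, 7 of 15 were negative and the median was 0.00059, so the negative direction was lost. Without control replicate 4, the lowest control array of the family, 12 of 15 were negative and the median was -0.09. The median over all units was 0.02 and -0.03 in these settings. One srsf member (6.67%, against 4.16% of all units) was higher at an unadjusted p under 0.05, in the opposite direction to the hnRNP members. This was srsf7b, which encodes a small serine and arginine rich protein with a zinc knuckle, at 2.71, 2.33, 3.04 and 2.78 in controls and 3.36, 3.08, 3.30 and 3.08 with sorafenib. Each sorafenib array exceeded each control array, with control replicate 3 just under the lowest of them. Its log2 fold change was 0.49 ± 0.19 (SE; unadjusted p = 0.0296, adjusted p = 0.653 in limma). It was 0.70 on slide 1 and 0.28 on slide 2, and its second probe gave 0.29. The unadjusted p was under 0.05 in 13 of 22 settings. Its copy srsf7a stood at -0.28 ± 0.42, with sorafenib arrays from -0.53 to 1.45, a spread wider than the difference. Without sorafenib replicate 4, the highest of these, the srsf7a value was -0.69. The gene srsf1b stood at 0.26 and its copy srsf1a at -0.08, while srsf2a, srsf3b and srsf6a stood at -0.08, -0.08 and -0.02.

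Zebrafish carry duplicated copies of many of these genes. In 10 pairs whose symbols differ in a final a or b both copies were measured. With the brightest probes, both values were negative in 7 of them and opposite in 3, all of the srsf family. For srsf1 and srsf6 the opposite signs depend on the probe used. The less bright probe gave 0.44 for srsf1a and -0.73 for srsf6b, each with the sign of the other copy. For srsf7a and srsf7b the less bright usable probes, at -0.09 and 0.29, were opposite too. Between brightest probes the difference was largest for srsf7 (0.77), followed by srsf1 (0.34) and hnrnpa0 (0.26, with the b copy lower). These differences were not tested, and probe sequences, which would show how far a probe can tell copies apart, were not used here.

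The proteins of the small nuclear ribonucleoproteins showed small differences. All 8 measured genes for proteins of the Sm ring (snrpb, snrpd1, snrpd2, snrpd3, its relative snrpd3l, snrpe, snrpf and snrpg) had a negative value, with a median of -0.14 and a range from -0.24 to -0.01. None of the 11 snrp members had an unadjusted p under 0.05 and for none were the groups separate. The median deviation of the snrp family was 0.18, 0.15, -0.02 and -0.13 in control replicates 1 to 4 and 0.10, 0.08, 0.17 and -0.47 in sorafenib replicates 1 to 4. Sorafenib replicate 4 was far below the rest, and without it the family median of log2 fold changes was 0.03 and 4 of 11 were negative. Without control replicate 4, the lowest control array, that median was -0.18 and 10 of 11 were negative. The smallest p values in the family were those of snrpf (-0.24 ± 0.19, SE) and snrpd3l (-0.18 ± 0.17), while snrpb stood at -0.01. The ring protein gene snrpg read 2.11 to 2.69 in controls and 2.68, 2.51, 2.74 and 1.42 with sorafenib. Its other sorafenib arrays lay in the upper part of the control range or just above it. The gene snrpe, also of the ring, had a control mean of 3.93 ± 0.20 (SD, n = 4 arrays) and read 3.98, 3.84, 4.04 and 2.98 with sorafenib. The U1 genes snrpa and snrpc stood at 0.07 and -0.04 and the U2 gene snrpa1 at -0.10. The less bright probe of snrpa gave -0.28, so its sign depends on the probe used.

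Low values in replicate 4 ran through most families in both groups. Of the 72 members, 40 had their lowest control value in control replicate 4 and 42 their lowest sorafenib value in sorafenib replicate 4. For the 19 snrp and lsm members the counts were 15 and 18. The median deviation of all 8906 named genes was also lowest in these arrays, at -0.11 in control replicate 4 and -0.12 in sorafenib replicate 4, against -0.01 to 0.10 in the others. The hnRNP family did not follow this pattern, since control replicate 4 was its highest control array. The 2 replicate 4 arrays were on slide 2, and the 75th percentile of their signal was 116 and 154.6. Replicate 3 of both groups was on slide 2 too, at 153.2 in control and 98.8 with sorafenib. Its median deviation of named genes was -0.01 in control and 0.10 with sorafenib. The part of signal level or slide in these values was not tested.

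**Figure D4:**
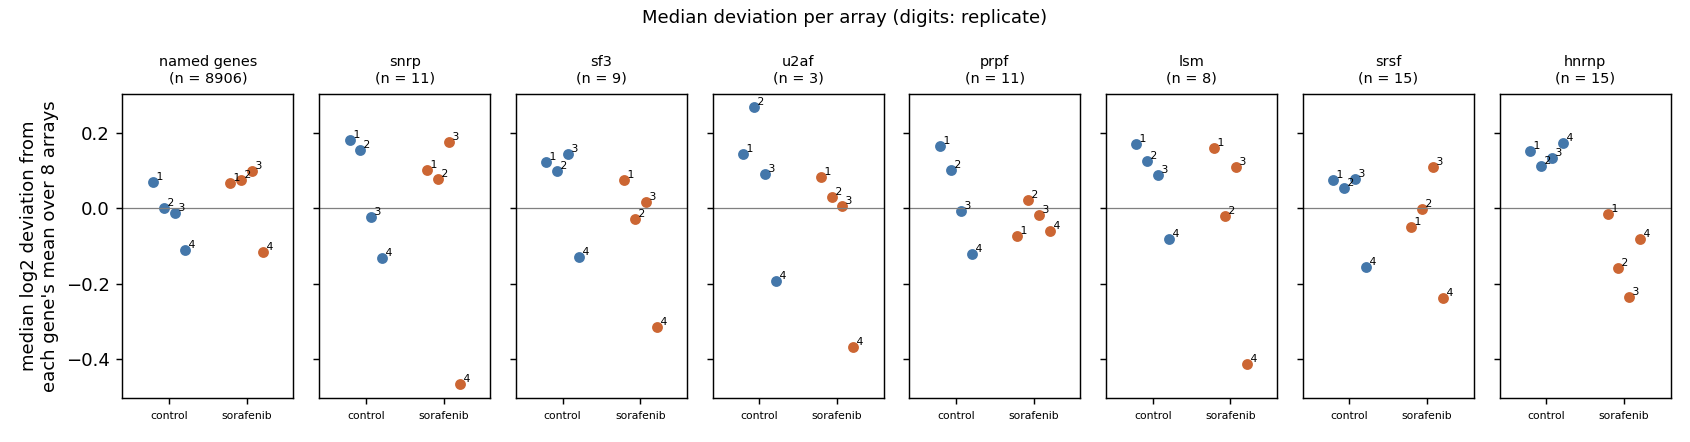
Median log2 deviation from each gene's mean over the 8 arrays (y axis) for all named genes and for each family, with 1 point per array and its replicate number. Replicate 4 is low in both groups for snrp, sf3, u2af and lsm, down to -0.47 for snrp, while in the hnrnp panel the 4 control arrays (0.11 to 0.17) lie above the 4 sorafenib arrays (-0.24 to -0.02).

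For the factors of branch point and intron end recognition the values were small. The 9 sf3 members had a median of -0.05, and 8 of them were under 0.2 in size. In none of the 4 sf3 members with several usable probes did the probes share a sign. The range over probes was 0.06 for sf3a2 to 0.32 for sf3b3, whose probes gave -0.09 and 0.23. The gene sf3b1, for the largest subunit of the complex that holds the branch point, read 2.78 to 3.32 in controls and 2.78 to 3.36 with sorafenib. These ranges nearly coincide, and the log2 fold change was -0.01 ± 0.19 (SE). The gene with the smallest p was sf3a1 at -0.23 ± 0.18, followed by sf3b6 at -0.17 ± 0.20. All 3 u2af members were negative but under 0.2 in size: u2af2a at -0.19, u2af1, which reads the end of the intron, at -0.15, and u2af2b at -0.06. Without sorafenib replicate 4, 2 of 3 were negative and their median moved from -0.15 to -0.04. Without control replicate 4 all 3 were negative and it was -0.21.

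Among the 11 prpf members the median was -0.16, with 8 negative. The gene prpf31, whose protein is needed to assemble the U4/U6.U5 complex and is mutated in a human retinal degeneration, read 3.07, 3.01, 3.19 and 3.03 in controls and 2.53, 2.84, 2.69 and 2.91 with sorafenib. Its groups were separate, with replicate 1 the lowest. It stood at -0.33 ± 0.16 (SE; unadjusted p = 0.0613, adjusted p = 0.661 in limma), and its second probe gave -0.59. The other genes of that complex were prpf4 (-0.16), prpf6 (-0.16) and prpf3 (0.04). The less bright probes of prpf6 and prpf3 gave -0.41 and -0.26, so the sign of prpf3 depends on the probe used. The gene prpf39, a U1 factor in yeast, stood at 0.26 ± 0.17 and overlapped with controls, and prpf19, a ubiquitin ligase of the spliceosome, stood at -0.17. The kinase gene prpf4bb and prpf38b were both at -0.01.

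The 8 lsm members had a median of -0.06, with 7 negative. Without sorafenib replicate 4 the median was 0.02 and 4 of 8 were negative. Without control replicate 4 it was -0.12 and 7 of 8 were negative. With arrays scaled to their median the lsm median was -0.0035, while the median over all units moved from -0.02 to 0.04. The largest values were those of lsm14aa, whose protein gathers in RNA granules (0.45 ± 0.22, SE; unadjusted p = 0.0639), lsm5 (-0.27 ± 0.17) and lsm12a (-0.26 ± 0.18). The lsm14aa probe read -3.34, -3.77, -3.30 and -4.13 in controls and -3.14, -3.14, -3.06 and -3.38 with sorafenib. Control replicates 1 and 3 were above sorafenib replicate 4, so the groups overlapped, and the probe lay at the floor of the authors' series table, where its difference was 0. The decay factor lsm1 and the ring members lsm4 and lsm7 stood at -0.04, -0.0035 and -0.08.

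**Figure D5:**
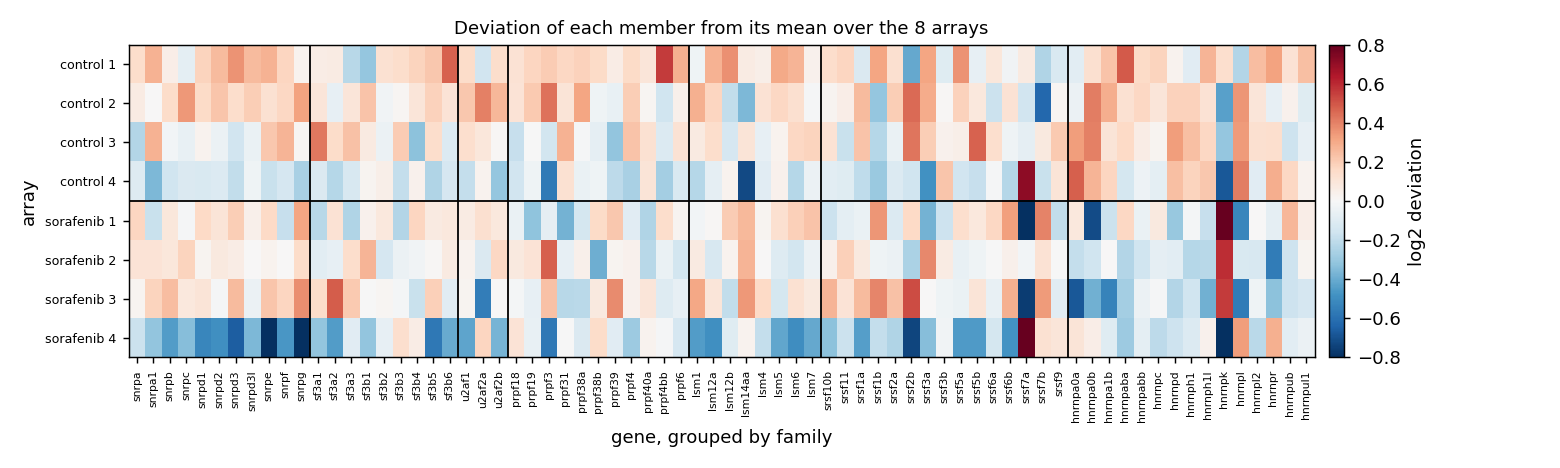
Log2 deviation of each of the 72 genes (x axis, grouped by family) from its own mean over the 8 arrays (y axis, controls above the line and sorafenib below), with red above and blue below that mean. The lowest row of each group, replicate 4, is blue across the snrp genes, and most hnrnp genes on the right pass from red in controls to blue with sorafenib.

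Splicing genes outside the 7 families were examined through lists chosen with earlier results of these data known. Of 14 other proteins of the small nuclear ribonucleoproteins 12 were negative (median -0.16), and of 34 helicases and step factors 29 were negative (median -0.10). None in either list had an unadjusted p under 0.05, where 3.3% of all units were lower and 4.16% higher. The smallest p values belonged to ppih (-0.39 ± 0.19, SE), usp39 (-0.40 ± 0.22), cwc15 (-0.28 ± 0.15) and snw1 (-0.43 ± 0.24). Sorafenib lay wholly below control for ppih, 1 of 14 genes, and for cwc15, 1 of 34. Among all units this share was 1.91%. The 13 measured genes of small nuclear ribonucleoprotein assembly, which are the SMN complex that loads Sm rings and factors of methylation, transport and cap binding, had a median of 0.03 and none exceeded 0.2 in size. The smallest p values were those of snupn (0.10) and gemin8 (0.10). Among 8 genes for kinases and a phosphatase of serine and arginine rich proteins, which include the member prpf4bb, the median was -0.06, with srpk1b at -0.32 ± 0.19 and srpk1a at 0.21 ± 0.21.

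Of 47 other nuclear RNA-binding proteins, 33 (70.2%, against 51.9% of all units) were negative, with a median of -0.10. At an unadjusted p under 0.05, 2 were higher (4.26%, against 4.16% of all units) and 1 lower (2.13%, against 3.3%), shares near or under those of all units. The splicing activator tra2b stood at 0.45 ± 0.17 (SE; unadjusted p = 0.0256), with controls from 2.91 to 3.22 and sorafenib arrays from 3.25 to 3.69. The gene rbmx, whose protein is also called hnRNP G, stood at 0.44 ± 0.18 (unadjusted p = 0.0371), and sfpq, a paraspeckle protein gene, at -0.39 ± 0.16 (unadjusted p = 0.0313). In all 3 the groups did not overlap, and their adjusted p-values in limma were 0.636 to 0.658. Over the whole list, sorafenib lay wholly above control for 2 of 47 genes and wholly below for 5. Among all units these shares were 2.28% and 1.91%. Among 9 heart and muscle splicing regulators the median was 0.06 and none had an unadjusted p under 0.05. The groups did not overlap for rbpms2a (0.38 ± 0.19), and rbfox2 stood at -0.28 ± 0.23.

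The neural splicing regulators were negative in 8 of 9 cases, with a median of -0.40. Their median deviation was 0.28 and 0.31 in sorafenib replicates 1 and 4, within the control range of -0.10 to 0.50, and -0.64 and -0.78 in replicates 2 and 3. Without these 2 sorafenib arrays 3 of 9 were negative and the median was 0.03, so the value of the list rested on them. The gene ptbp2b, for the neural relative of the polypyrimidine tract binding repressor, read 2.576, 2.501, 2.513 and 2.404 in controls and 1.962, 1.438, 1.621 and 1.604 with sorafenib. The groups were far apart relative to their spread, at 2.499 ± 0.07 (SD, n = 4 arrays) and 1.656 ± 0.22. The difference was -0.84 ± 0.17 (SE; unadjusted p = 6.04e-04, adjusted p = 0.309 in limma). All 19 neural markers measured were negative too, and elavl3 and elavl4 are on both lists. Without sorafenib replicates 2 and 3, ptbp2b stood at -0.72. The gene elavl2 stood at 0.83 ± 0.35 (unadjusted p = 0.0423) but was well above background on only 5 of 8 arrays. The other 7 regulators ranged from -0.62 for khdrbs2 to -0.29 for msi2b.

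The members had a lower median spread between arrays than all units or all named genes. The median SD over the 4 controls was 0.17 for the members, 0.25 for named genes and 0.29 for all units. Over the 4 sorafenib arrays it was 0.22, 0.33 and 0.37. The median standard error of a log2 fold change was 0.18 for the members, 0.22 for named genes and 0.24 for all units. These sets were not matched for signal level. Correlations of members between arrays were 0.956 to 0.992 within groups and 0.966 to 0.992 between groups. Proliferation markers had a median of 0.05 over 16 genes with 6 negative, and their summed signal was 170.3 to 232.8 in controls and 186.5 to 216.3 with sorafenib.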

How the data were processed

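The authors deposited 1 scanner file per array with linear spot intensity, the processed signal of the scanner software, and flags per spot. Per the file headers it came from Feature Extraction 10.1.1.1 with danRer5 annotation, whereas the submitters' processing notes name Agilent Feature Extraction 8.0. A deposited series table holds log2 values of 21383 probes, whose centring is not given in the sources used here. All its columns share the lowest value, 5.66, and the highest value, 16.6. The table served as an alternative. Its columns correlated with their own arrays at 0.975 to 0.985, more than with any other array, and had medians of 7.195 to 7.222.

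Control spots and 5 to 15 outlier spots per array were left out, spots of a probe were averaged, and log2 signal minus the array's 75th percentile was used. Probes well above background on at least 4 arrays entered. Of 43603 probes, 15163 were named through RefSeq accessions (assembly GRCz12tu, names only). The unit tested was a named gene or an unnamed probe. Sorafenib and control were compared with limma 3.58.1 in R 4.3.3, without covariates, with Benjamini-Hochberg adjustment. The fit was tested on simulated data. Lists got no test of their own.

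Named were members with an unadjusted p under 0.05, the 2 of each prefix and of each list of other splicing genes with the smallest p, fixed members, the 3 pairs of copies that differ most and the 3 genes with the widest probe range. Pairs of symbols that encode different proteins (snrpa and snrpb, prpf38a and prpf38b) were left out of the copies. Other genes were named after their values were seen. Members and lists were chosen with earlier results of these data known. Same-numbered replicates correlated at 0.27, 0.42, 0.04 and 0.70 in their deviations. The numbers would have been taken as pairs had every value been over 0.1, and the labels name no shared batch, so the fit has no block. P-values measure the spread between the arrays, whose independent origin rests on the submitters' design text.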

Additional observations from a re-analysis of the deposited data

Results flagged for a closer look

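In 4 of 80 groups of 4 arrays checked, for 40 named genes, 1 array stood apart from the other 3 by more than Dixon's 95% limit, and chance alone flags about 1 in 20. For srsf1b this was control replicate 1 at 4.301, with its fellow controls at 3.67 to 3.75. The gene u2af1 read 3.30 in sorafenib replicate 4 and 3.74 to 3.79 in the other sorafenib arrays. For rbfox2 it was control replicate 2 at 4.56, below 5.097 to 5.19 in the rest. For srpk1a it was control replicate 1 at -0.92, below -0.39 to -0.305 in the rest. The array low in u2af1 is the one low in most snrp and lsm members.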

How the results depend on the processing

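The median log2 fold change of the 72 members was negative under all 21 alternatives. It ranged from -0.19 without sorafenib replicates 2 and 3 to -0.03 without sorafenib replicate 4. With single arrays left out it ranged from -0.17 to -0.03. The number of transcripts called higher over all tested was 2 with quantile normalization, 1 with median scaling, 1 with normexp, 3 in the series table and 13 with array weights, and the number called lower was 4 in the series table and 9 with array weights; with single arrays left out it was 0 to 1 higher and 0 lower. None of the 72 members and none of the 133 other splicing genes was among these, with lowest adjusted p-values of 0.119 for hnrnpa0b and 0.0672 for ptbp2b, both with array weights. Members lower at an unadjusted p under 0.05 numbered 18 in the series table (25%, against 4.28% of all units there), 8 with normexp (11.1% against 3.06%) and 7 with array weights (9.72% against 10.9%). They numbered 2 with no filter (2.74% against 2.47%) and 1 with median scaling (1.39% against 2.56%). They were 0 on slide 1 alone (against 1.48%), 0 on slide 2 alone (against 1.5%), and 1 without sorafenib replicates 2 and 3 (1.39% against 1.64%). They numbered 1 to 8 with single arrays left out, the 8 without sorafenib replicate 4 (11.1% against 8.64%). The count was 1 (1.39%) without control replicate 2, 3 or 4 or sorafenib replicate 1 or 3. The shares of all units in these settings were 3.08%, 1.96%, 2.3%, 5.61% and 1.89%. Members higher numbered 2 in the series table (2.78% against 5% of all units) and 2 with array weights (2.78% against 10.9%). There were 0 with the mean of probes (against 4.09%), 0 on slide 2 alone (against 1.67%) and 0 without sorafenib replicates 2 and 3 (against 1.76%). With single arrays left out 0 to 2 members were higher, and 2.36% to 9.36% of all units. The cause of these shifts was not tested, and a slide alone holds fewer arrays. With the replicate number as a block, 3 members were higher (4.17% against 6.6% of all units) and 5 lower (6.94% against 6.76%) at an unadjusted p under 0.05, newly hnrnpk, lsm14aa and hnrnpl (p = 0.0268, 0.0286 and 0.0479 in limma), and 0 transcripts passed either way; each control array correlated best with the sorafenib array of its own number, a hint from the data and not the design. For normexp, the background of spots flagged as uneven was set to the array's median, since such spots made the fit fail.

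Signs turned for values near 0 or where probes disagree. With median scaling lsm1 stood at 0.0131, sf3b1 at 0.0516 and snrpb at 0.0487, and with array weights at 0.0238, 0.0575 and 0.0810. On slide 1 alone hnrnpa0a stood at 0.0101, sf3b1 at 0.196 and srsf5b at 0.0185, and on slide 2 alone lsm1 at 0.0081 and srsf2a at 0.0794. With the mean of probes srsf1a stood at 0.181 and srsf6b at -0.321. Without sorafenib replicates 2 and 3 srsf6b stood at -0.0319, u2af2a at 0.0572, gemin8 at -0.000328 and rbfox2 at 0.00363. With single arrays left out, sf3b1 ranged from -0.110 to 0.0989, snrpb from -0.0928 to 0.138, lsm1 from -0.154 to 0.0977, srsf1a from -0.178 to 0.0541 and srsf6b from -0.00762 to 0.261. The number of arrays limits what can be seen, since a log2 fold change of 0.2 is about the size of its standard error here.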
